A study of Mus musculus with 35 samples.

Results

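The 12-week and 8-week groups of a microarray series on pancreatic lymph nodes were compared by their strain ratio, the log2 of the NOD signal over the control signal on the same array. The comparison used 11 of the 35 arrays in the series, 4 titled as 8 weeks and 7 as 12 weeks. On each array the green dye (Cy3) carried RNA from pancreatic lymph nodes of female NOD/LtJ mice of the stated age, and the red dye (Cy5) carried RNA of the control strain NOD.B10Sn-H2b/J. The labels give no treatment, call the NOD channel diabetic and the second channel control at both ages, and record no dye swap. The series design describes the controls as groups of 10 NOD.B10 mice killed at 10 days and at 20 weeks. It does not say which control RNA went onto an 8-week or a 12-week array, so the control is treated as 1 sample and its variation between mice is not measured here. A ratio of 0 means equal signal in both channels, and 1 unit is a 2-fold difference. A change of ratio with age can come from either channel, so the parts carried by the NOD and by the control signal are given beside it.

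The NOD mouse develops autoimmune diabetes. Islet proteins are carried to the pancreatic lymph node by antigen-presenting cells, and self-reactive T cells meet them there before they enter the islets. The control strain shares much of the NOD background but carries another MHC haplotype (H2b) and is protected, so a node from it drains a pancreas without progressive loss of beta cells. Ratios of MHC genes and of other polymorphic genes can differ at every age because probe and allele match differently in the strains, and for that reason only the change between the ages is read.

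Of 28361 genes tested, 3410 (12.0%) differed in ratio between the ages at an adjusted p under 0.05 in limma, with 1303 (4.59%) higher and 2107 (7.43%) lower at 12 weeks. Centring every array on its median moved that split to 1586 higher and 1669 lower. With a difference of at least 1 unit as well, 307 genes (1.08%) were higher and 857 (3.02%) lower. The 8-week and 12-week ranges did not overlap for 2194 genes (7.74%), of which 914 (3.22%) were higher and 1280 (4.51%) lower. The median difference over all genes was -0.05 in ratio, 0.08 in the NOD signal and 0.11 in the control signal, each as 12 weeks minus 8 weeks on the log2 scale. The signal of a channel depends on how arrays are scaled, here by quantiles of the mean of both channels (Aquantile), which leaves each ratio as it is. Shifting arrays by their median signal instead made the last 2 values 0.52 and 0.58.

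With Aquantile scaling, calls with a higher ratio were more often carried by the NOD channel and calls with a lower ratio more often by the control channel, with many exceptions. In the NOD signal 3684 genes were higher and 3831 (13.5%) lower at 12 weeks, and in the control signal 5390 (19.0%) were higher and 3942 (13.9%) lower. These counts depend on the scaling: with the median shift they were 7655 and 2491 for NOD and 11119 and 2331 for the control. Among the 1303 genes with a higher ratio, 596 were called in the NOD channel alone, 216 in the control channel alone, 169 in both the same way, 16 in both in opposite ways and 306 in neither. Among the 2107 with a lower ratio the order was reversed, with 1012 called in the control channel alone, 437 in the NOD channel alone, 241 in both the same way, 65 in both in opposite ways and 352 in neither. The share of the ratio difference that came from the control signal had a median of 0.04 for the higher genes and 0.58 for the lower genes, and of 0.17 and 0.48 among those that differed by at least 1 unit. These classes and shares were taken from the Aquantile scaling alone. The labels do not state that the arrays of an age came from separate mice, so these p-values measure the spread between arrays, and for the control channel only the spread between hybridisations.

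The ages were not evenly spread over the scanning runs. No scan day held arrays of both ages, so age and scan day cannot be told apart. Only the scanner of 8-week replicates 1, 3 and 4 read arrays of both ages, with 12-week replicate 1. Replicates 1, 3 and 4 at 8 weeks and replicate 7 at 12 weeks were read with Feature Extraction 8.1.1.1. Replicate 2 at 8 weeks and replicates 1 to 6 at 12 weeks were read with version 8.5.1.1. The ratios of 8-week replicate 2 correlated across genes at r of 0.22 to 0.43 with the 12-week arrays and at -0.01 to 0.25 with the other 8-week arrays, which correlated with each other at 0.38 to 0.53. Replicates 5 and 6 at 12 weeks also stood apart from the others of their age, at 0.22 to 0.38, and without both of them 5305 genes were called. Between 74.4% and 87.8% of spots were well above background in the NOD channel at 8 weeks and 43.0% to 70.2% at 12 weeks, against 43.6% to 73.5% and 36.3% to 70.6% in the control channel. The control percentage split by version, with 67.9% to 73.5% on the 8.1.1.1 arrays and 36.3% to 47.3% on the 8.5.1.1 arrays. For the NOD channel the versions had 70.2% to 87.8% and 43.0% to 74.4%. With the version as a block 1979 genes were called, 820 higher and 1159 lower, and 2 of the 3410 calls turned in sign. Within a version 1 age has a single array, and the values given below for each version are differences of means, 8.1.1.1 first.

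**Figure D1:**
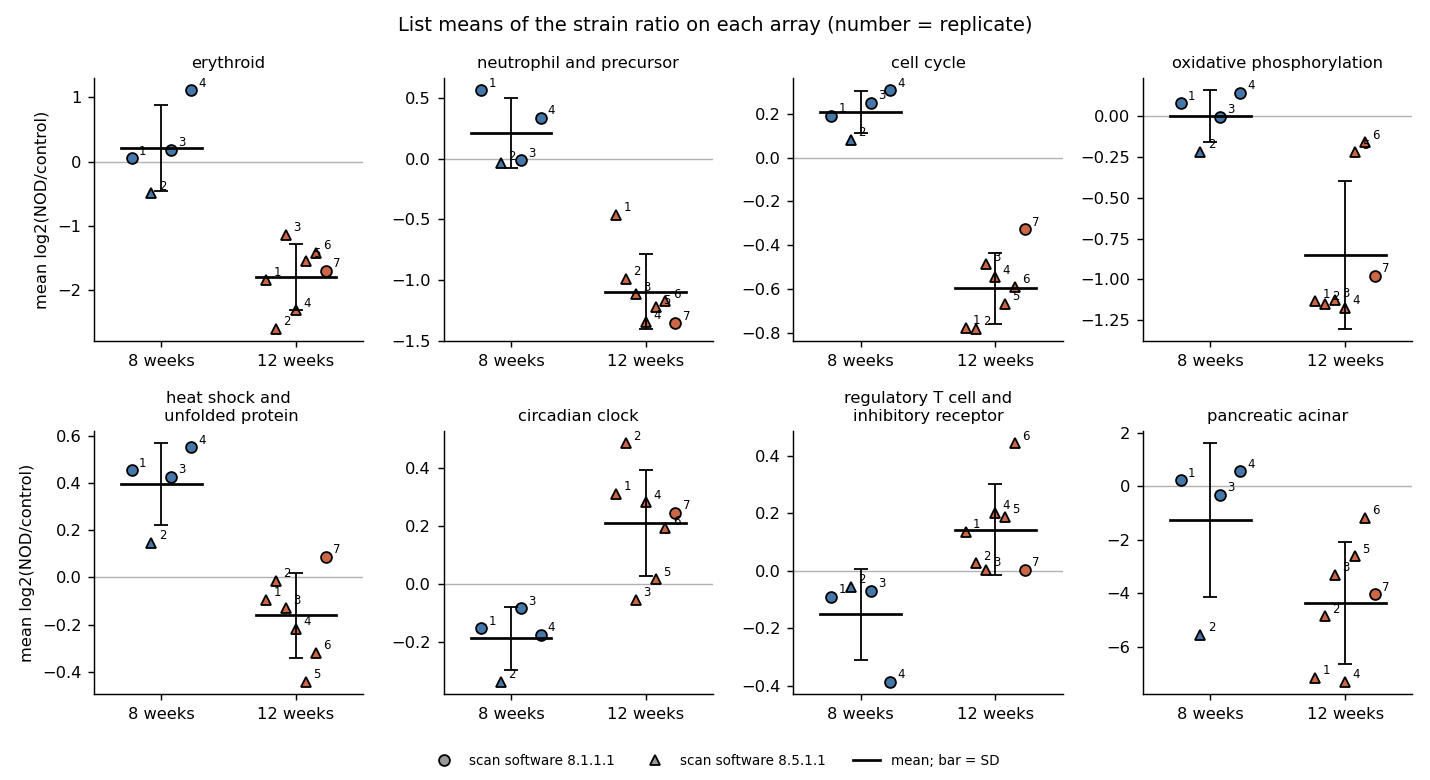
Mean log2(NOD/control) over the measured genes of 8 lists on each array, at 8 weeks (blue, 4 arrays) and 12 weeks (orange, 7 arrays), with the replicate number beside each point, circles for Feature Extraction 8.1.1.1, triangles for 8.5.1.1, and the group mean with its SD. The erythroid, neutrophil and cell cycle means at 12 weeks lie below all 8-week means, whereas in the acinar panel 8-week replicate 2, at -5.56, lies among the 12-week arrays.

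Genes of red cell precursors had a lower ratio at 12 weeks. They encode globins, the enzymes of haem synthesis, the red cell membrane and the factors that switch them on. Of 24 measured erythroid genes, 19 had a lower ratio at 12 weeks and none a higher one, against 7.43% lower among all genes, and all 24 differences were below 0. Their median difference was -2.11. The list mean was 0.05, -0.49, 0.18 and 1.11 on the 4 arrays at 8 weeks and ran from -2.60 through a median of -1.69 to -1.14 at 12 weeks. The groups did not overlap.

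The erythroid difference lay mainly in the control channel over all 11 arrays. The control signal of the list averaged 10.03 ± 0.13 (SD, n = 4) log2 units at 8 weeks and 11.70 ± 0.23 (SD, n = 7) at 12 weeks, while the NOD signal averaged 10.24 ± 0.55 and 9.90 ± 0.51. The 8-week control mean was the lowest of the 6 ages in the series, the others running from 11.2 (20 weeks) to 12.6 (4 weeks). The NOD median difference of -0.14 became 0.24 with the median shift, but relative to all genes it was -0.22 and -0.28, and the control median was 1.79 and 1.58. In the control channel 21 of the 24 genes were higher at 12 weeks, against 19.0% of all genes. In the NOD channel 2 were lower, against 13.5%. Across the called genes, 16 of the 19 were called in the control channel alone. The list's ratio fell by 2.14 within version 8.1.1.1 and by 1.32 within 8.5.1.1, and its control signal was higher by 1.24 and 1.58. The NOD signal differed by -0.90 and 0.26, so within 8.1.1.1 both channels contributed. With the version as a block 9 of the 24 genes were called lower, and normexp background correction gave a median of -1.01. The labels do not say which control RNA, 10-day or 20-week, each age was set against. That choice, with any age difference of the control mice that it brings, and the scan day cannot be told apart.

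Klf1 encodes the transcription factor that drives the adult globin programme. Its ratio was 0.28, -0.55, 0.73 and 1.82 on the 8-week arrays and ran from -3.27 through -2.67 to -1.5 at 12 weeks, a difference of -3.19 ± 0.53 (SE, adjusted p = 0.000114, limma). All 12-week arrays were below all 8-week arrays. The NOD signal differed by 0.02 (adjusted p = 0.98, limma) and the control signal by 3.21 (adjusted p = 3.0e-11, limma), so the ratio difference lay in the control channel, and with the median shift the parts relative to all genes were -0.29 and 2.83. Alas2 encodes the erythroid first enzyme of haem synthesis, and its ratio was 0.90, 0.0047, 0.53 and 1.56 at 8 weeks and -4.10, -1.88 and -0.16 at the lowest, median and highest 12-week array. The Alas2 groups did not overlap. Its difference was -2.69 ± 0.53 (SE, adjusted p = 0.000721, limma), of which -0.23 was in the NOD signal and 2.46 in the control signal. Hba-a1, an alpha globin gene with a near-identical copy that the probe may also detect, read 1.31, 0.85, 0.58 and 1.67 at 8 weeks and -4.46, -2.33 and -0.13 at 12 weeks. The difference was -3.11 ± 0.50 (SE, adjusted p = 8.57e-05, limma), again without overlap, and the control signal carried 2.63 of it.

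Genes of the red cell membrane showed the same split. Kel, the Kell blood group protein, fell by 3.13 in ratio with a control difference of 2.73. Ank1, the ankyrin that ties the membrane to its skeleton, fell by 2.84 with a control difference of 2.28. Only 3 of its 5 probes had a difference below 0, and the highest was at 0.62. Slc4a1, the band 3 anion exchanger, fell by 2.68 with a control difference of 2.35. None of these 3 genes was called in the NOD channel (adjusted p from 0.51 to 0.76, limma). Rhd, the Rh blood group antigen, differed by -3.36 ± 0.72 (SE, adjusted p = 0.00166, limma), with a NOD difference of -1.05 (adjusted p = 0.26, limma). Its ratio was -0.08, -1.43, 0.11 and 1.77 at 8 weeks and -5.28, -2.98 and -1.87 at 12 weeks, without overlap. With the version as a block the Rhd call was lost (-2.61, adjusted p = 0.071, limma). Car1, a red cell carbonic anhydrase, was called in both channels: its ratio fell by 2.11, with NOD lower by 1.40 (adjusted p = 0.0099, limma) and control higher by 0.71. Regulators named after their values were seen were Gata1 (-1.11, adjusted p = 0.043, limma) and the erythropoietin receptor gene Epor (-1.59, adjusted p = 0.0035, limma).

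Promoters are shown for Alas2 and Rhd because both genes moved with the erythroid list and hold the letters AGATAA, the core that GATA factors recognise, on 1 strand or the other. The stretches are the 250 bases before the start, 5′ to 3′ on the gene's strand, at chrX:150547167-150547416 (plus strand) and chr4:134864286-134864535 (plus strand) of GRCm38.p6, from RefSeq, with AGATAA or its reverse complement TTATCT in capitals.
Alas2: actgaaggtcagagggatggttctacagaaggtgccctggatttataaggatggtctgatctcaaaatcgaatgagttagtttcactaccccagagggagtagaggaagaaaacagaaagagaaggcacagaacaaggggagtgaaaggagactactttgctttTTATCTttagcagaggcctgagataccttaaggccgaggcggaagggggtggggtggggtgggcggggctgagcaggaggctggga
Rhd: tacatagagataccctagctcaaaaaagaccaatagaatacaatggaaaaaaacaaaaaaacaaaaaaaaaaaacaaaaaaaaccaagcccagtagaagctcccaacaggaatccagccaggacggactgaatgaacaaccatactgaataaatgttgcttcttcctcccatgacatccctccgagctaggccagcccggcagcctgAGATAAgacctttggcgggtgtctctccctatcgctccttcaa
In the 300-base windows (250 before to 50 after the start) 6 of 16 erythroid promoters, from 16 of the 24 measured genes, held the motif, which is 37.5%, against 11.2% of all 32851 RefSeq promoters. A match describes letters only.

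Granulocyte genes also had a lower ratio. Of 20 measured genes of neutrophils and their precursors, 9 had a lower ratio at 12 weeks, none a higher one and 18 a difference below 0, with a median of -0.60, against 7.43% lower among all genes. The control signal of the list was 8.69 ± 0.11 (SD, n = 4) at 8 weeks and 9.80 ± 0.18 (SD, n = 7) at 12 weeks, and the NOD signal 8.90 ± 0.24 and 8.71 ± 0.40. Here too the 8-week control mean was the lowest of the 6 ages, the others running from 9.74 (4 weeks) to 11.28 (10 days). In the control channel 13 of the 20 were higher and none lower, against 19.0% and 13.9% of all genes. The list mean fell by 1.65 within version 8.1.1.1, with -0.88 in the NOD and 0.78 in the control signal, and by 1.01 within 8.5.1.1, with 0.013 and 1.02. With normexp background correction and loess 7 were called and the median difference was -0.14, and with the scanner as a block 4 were called. Only 12 of the 20 genes met the background and saturation rule used for naming genes, so the median of -0.60 includes genes that failed it. When dim probes were removed, by asking each of the 11 arrays to pass the background test for NOD and control alike, 9 genes remained. Of these 9 genes 7 were called lower, and their median difference was -2.62.

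Camp, the cathelicidin stored in neutrophil granules, was among the falls. Its ratio was 1.60, -0.69, 0.37 and 0.94 at 8 weeks and -3.89, -2.92 and -1.64 at the lowest, median and highest 12-week array. The difference was -3.60 ± 0.63 (SE, adjusted p = 0.000193, limma), without overlap, with -1.34 in the NOD signal (adjusted p = 0.088, limma) and 2.26 in the control signal. S100a8 and S100a9 encode the subunits of calprotectin, a calcium-binding protein of neutrophils and monocytes. S100a8 fell by 3.18 and was called in both channels, NOD lower by 1.61 and control higher by 1.56. S100a9 fell by 2.83, with a NOD difference of -0.74 that was not called and a control difference of 2.08. Mpo, the myeloperoxidase of the granulocyte precursor, fell by 2.83 with 2.66 in the control signal, and its call was lost with the scanner as a block (-2.11, adjusted p = 0.19, limma). Other genes of the list did not move: Elane differed by -0.07, Prtn3 by 0.01 and Lcn2 by 0.22 (adjusted p from 0.82 to 0.99, limma). Ltf (-2.41) and Ngp (-1.57) were called lower, and all of these were named after their values were seen. Bulk arrays cannot tell fewer cells of a type from less RNA per cell.

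**Figure D2:**
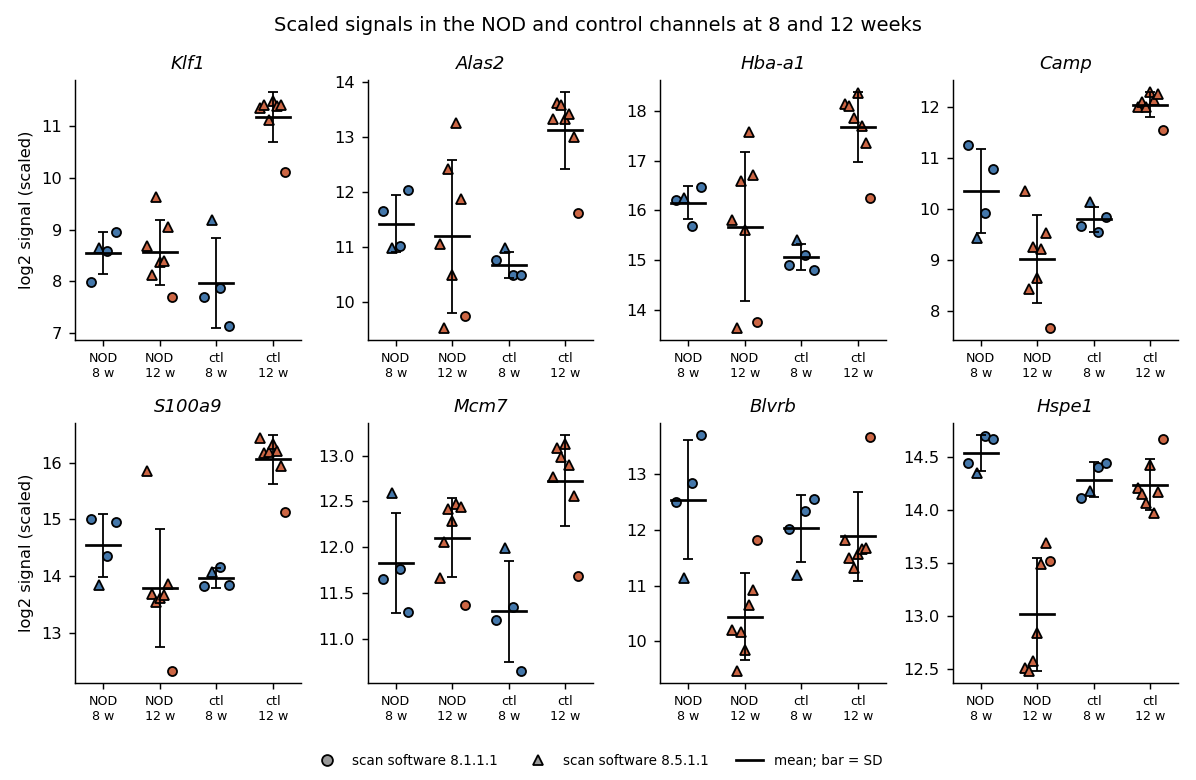
Scaled log2 signal in the NOD and control (ctl) channels at 8 weeks (blue, 4 arrays) and 12 weeks (orange, 7 arrays) for 8 genes, with group mean and SD. For Klf1 the NOD means are 8.54 and 8.56 while the control means are 7.97 and 11.18, whereas for Hspe1 the control means are 14.29 and 14.24 and the NOD mean goes from 14.54 to 13.02.

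Cell division genes had a lower ratio at 12 weeks as well. Of 47 measured cell cycle genes, 23 were called lower and none higher, 44 differences were below 0 and the ages did not overlap for 26 genes, all lower, against 7.43% called lower and 4.51% lower without overlap among all genes. The median difference was -0.82. The list mean was 0.19, 0.08, 0.25 and 0.31 at 8 weeks and from -0.78 through -0.59 to -0.33 at 12 weeks, so the groups were apart. The NOD signal of the list was 10.37 ± 0.10 (SD, n = 4) and 10.39 ± 0.12 (SD, n = 7), and the control signal 10.16 ± 0.15 and 10.99 ± 0.12. In the control channel 36 genes were higher and 1 lower, against 19.0% and 13.9% of all genes. The list fell by 0.58 within version 8.1.1.1 and by 0.72 within 8.5.1.1. The number called was 11 with the version as a block.

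Mcm7, a subunit of the helicase that unwinds DNA at replication origins, read 0.45, 0.59, 0.42 and 0.64 at 8 weeks and -1.09, -0.57 and -0.12 at the lowest, median and highest 12-week array. Its difference was -1.15 ± 0.19 (SE, adjusted p = 9.75e-05, limma), with 1.43 in the control signal and 0.28 in the NOD signal. The Mcm7 groups did not overlap. Mki67, the proliferation antigen Ki-67, was named after its values were seen: it differed by -1.54 in ratio (adjusted p = 0.0052, limma), by 1.61 in the control signal and by 0.07 in the NOD signal. Some genes of DNA precursor supply and S phase entry also fell in the NOD signal. Tyms, thymidylate synthase, fell by 1.61 in ratio, by 0.91 in the NOD signal (adjusted p = 0.0074, limma), and was 0.70 higher in the control signal. Another Tyms probe had a ratio difference of only -0.15. Ccne1, cyclin E1, fell by 1.74 in ratio and by 0.93 in the NOD signal (adjusted p = 0.0078, limma). Pcna, the sliding clamp of DNA polymerase, had a ratio on 3 of the 4 arrays at 8 weeks and fell by 1.30 ± 0.19 (SE, adjusted p = 2.52e-05, limma). The letters CCAAT, a box common in mitotic gene promoters, or their reverse complement ATTGG were present in 32 of 42 cell cycle promoters (76.2%), from 40 of the 47 genes, and in 37.4% of all promoters.

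Genes of the lymphocytes and antigen-presenting cells that make up a node moved both ways, and most of the B cell and class II falls were control differences. The T cell gene Cd3g and the B cell genes Ms4a1 and Cr2 passed the scanner's background test in both channels of every one of the 11 arrays. Of 24 B cell genes 6 had a lower and 4 a higher ratio, against 7.43% and 4.59% of all genes, and in a fit to the 11 arrays 6 and 0. The 6 lower genes were called in the control channel alone, and of the 4 higher genes 1 was called in the NOD channel alone, 2 in both and 1 in neither. Btk, the kinase of B cell receptor signalling, was higher by 1.57 with overlapping ranges and 1.96 in the NOD signal, and was named after its value was seen. Cr2, the complement receptor of B cells and follicular dendritic cells, read 0.55, 0.41, 0.96 and 0.72 at 8 weeks and -1.06, -0.27 and -0.0062 at 12 weeks. The difference of -1.03 ± 0.18 (SE, adjusted p = 0.000224, limma) had 0.01 in the NOD signal and 1.04 in the control signal, and the groups did not overlap. The other Cr2 probe differed by -0.23. Fcer2a, the B cell IgE receptor CD23, fell by 1.12 with 1.26 in the control signal. Of 16 class II MHC and loading genes 5 had a lower ratio, against 7.43% of all genes, and none a higher one, among them H2-DMb2, a subunit of the peptide editor H2-M, which fell by 1.05 with 1.44 in the control signal. Ciita, the master activator of class II genes, fell by 1.05, its ranges overlapped, and with the scanner as a block the difference was -0.65 (adjusted p = 0.31, limma).

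The class II chains themselves were not called. H2-Ab1 differed by 0.22, H2-Eb1 by -0.22 and Cd74, the invariant chain, by 0.24 (adjusted p from 0.46 to 0.67, limma). H2-Aa differed by 0.06, but its other probe was called lower at -1.18, so the direction of that gene is not settled. Aire, the regulator of tissue antigens, differed by 0.06 (adjusted p = 0.93, limma), with 1.14 in the NOD signal and 1.08 in the control signal. Ifng, encoding interferon gamma, differed by -0.75 and Il2 by 0.59 (adjusted p = 0.15 and 0.35, limma). The Il2 control spot passed the background test on 1 of the 7 older arrays.

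Other falls lay partly or wholly in the NOD channel. All 42 measured genes of oxidative phosphorylation, the mitochondrial machinery that makes ATP, had a difference below 0. Of these, 30 were called lower, against 7.43% of all genes, and none higher, and the median was -0.86, from NOD and control medians of -0.50 and 0.27 (0.10 and 0.84 with the median shift, and for NOD relative to all genes -0.57 and -0.42). The list mean was 0.08, -0.22, -0.01 and 0.14 at 8 weeks and ran from -1.17 through -1.13 to -0.16 at 12 weeks. The groups overlapped through 12-week replicate 6 at -0.16, and replicate 5 at -0.22 lay next to the 8-week arrays, while the other 5 arrays read -1.17 to -0.98. Of the 30 calls 11 were in the NOD channel alone, 11 in the control channel alone, 3 in both and 5 in neither. The list fell by 1.05 within version 8.1.1.1 and by 0.61 within 8.5.1.1, and a fit to the 11 arrays alone called 15 genes.

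Ndufb6, a subunit of respiratory complex I, read -0.03, -0.38, -0.07 and 0.13 at 8 weeks and -2.21, -2.13 and -0.41 at the lowest, median and highest 12-week array. The difference was -1.58 ± 0.25 (SE, adjusted p = 8.03e-05, limma), with -1.93 in the NOD signal and -0.36 in the control signal, and the groups did not overlap. Uqcrq, a subunit of complex III, fell by 1.92 ± 0.32 (SE, adjusted p = 0.000115, limma) with overlapping ranges, and NOD carried -1.32. The other Uqcrq probe differed by only -0.15. Atp5j, a subunit of ATP synthase, fell by 0.97 in ratio with only -0.37 in the NOD signal (adjusted p = 0.10, limma). Blvrb, the biliverdin reductase that acts in haem breakdown and is abundant in red cells, fell by 1.96 ± 0.33 (SE, adjusted p = 0.000137, limma), but with -2.10 in the NOD signal and -0.15 in the control signal. Gstk1, a mitochondrial and peroxisomal glutathione transferase, fell by 1.70, and S100a10, a partner of annexin A2, fell by 1.56. Each of these had its called difference in the NOD signal, -1.30 and -1.90.

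Chaperone genes fell through either channel. Heat shock proteins fold damaged proteins in the cytosol and mitochondria, and the unfolded protein response serves the endoplasmic reticulum. Of 25 measured genes 7 had a lower ratio, against 7.43% among all genes, none a higher one and 21 a difference below 0. Of the 7 calls 2 were in the NOD channel alone, 1 in the control channel alone, 2 in both and 2 in neither. The list's NOD median was -0.38 and its control median 0.28 (0.23 and 0.67 with the median shift, and for NOD relative to all genes -0.45 and -0.29). With the version as a block 3 were called and the median went from -0.39 to -0.22. Hspe1, the mitochondrial co-chaperonin, read 0.33, 0.17, 0.29 and 0.23 at 8 weeks and -1.70, -1.50 and -0.48 at 12 weeks. Its difference was -1.48 ± 0.21 (SE, adjusted p = 1.94e-05, limma), without overlap, and -1.52 of it was in the NOD signal and -0.05 in the control signal. It was -1.43 within version 8.1.1.1 and -1.41 within 8.5.1.1.

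Hspa1a, the inducible cytosolic HSP70, read 1.53, 1.24, 0.98 and 0.51 at 8 weeks and -1.28, -0.89 and -0.25 at 12 weeks. The difference of -1.90 ± 0.41 (SE, adjusted p = 0.00197, limma) was without overlap, but Hspa1a has a near-identical neighbour and its other probes gave differences from -2.42 to 0.06. It was lost with the scanner as a block (-1.68, adjusted p = 0.096, limma). Sdf2l1 and Manf act in the endoplasmic reticulum and its stress response. Sdf2l1 fell by 2.03 ± 0.27 (SE, adjusted p = 1.02e-05, limma) without overlap, with NOD at -1.17 and control at 0.85, and passed the background test on 6 of 7 older arrays in both channels. Manf fell by 0.94, all of it in the NOD signal (-0.97), with overlapping ranges. Hsph1, a co-chaperone of HSP70, fell by 1.84 without overlap (adjusted p = 0.0028, limma), with 1.30 in the control signal and a NOD difference of -0.55 that was not called. Hspa5, the main chaperone of the endoplasmic reticulum, differed by 0.17 (adjusted p = 0.76, limma) and both genes were named after their values were seen.

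The Hspe1 promoter is shown because the gene fell without overlap and holds the heat shock element GAANNTTC, in capitals, which is its own reverse complement. The 250 bases before the start lie at chr1:55087898-55088147 (plus strand) of GRCm38.p6, from RefSeq.
Hspe1: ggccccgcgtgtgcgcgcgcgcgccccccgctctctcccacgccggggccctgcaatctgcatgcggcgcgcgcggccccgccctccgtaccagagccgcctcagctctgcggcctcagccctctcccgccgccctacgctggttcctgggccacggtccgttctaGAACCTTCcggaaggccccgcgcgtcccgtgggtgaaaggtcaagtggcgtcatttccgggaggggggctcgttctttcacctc
The motif was in 8 of 25 promoters of the heat shock and unfolded protein list (32.0%), from 20 of its 25 genes, and in 7.86% of all promoters.

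**Figure D3:**
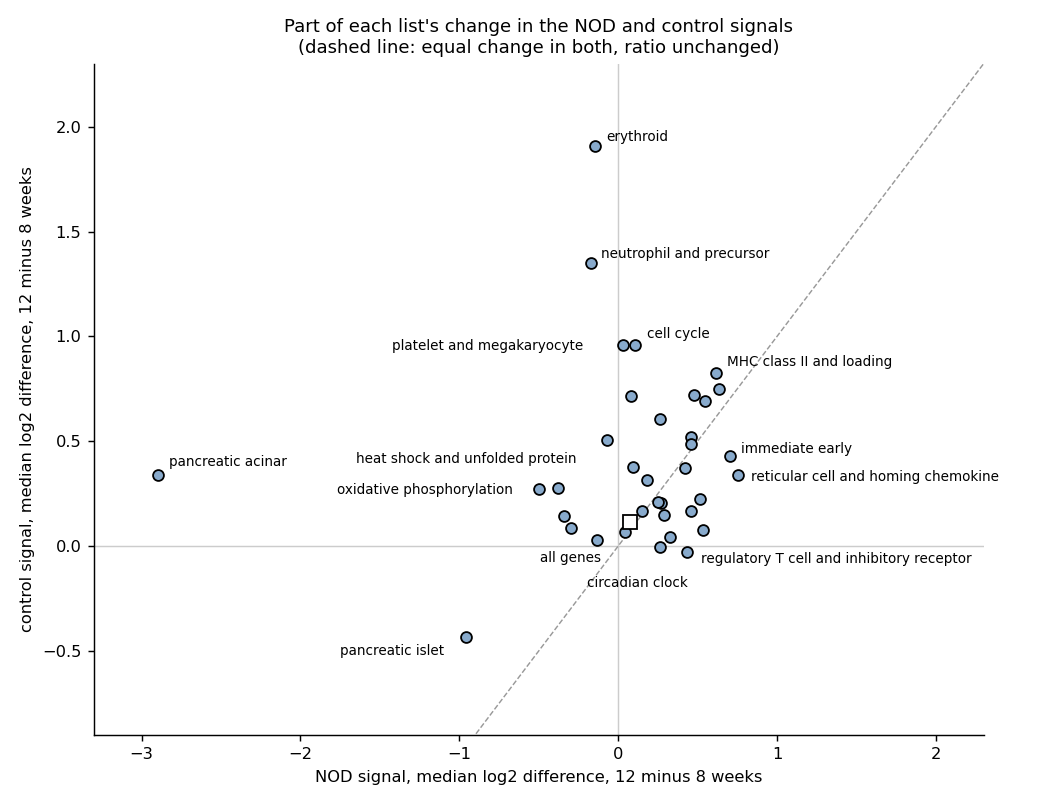
Median log2 difference, 12 minus 8 weeks, of the control signal (vertical) against the NOD signal (horizontal) for 36 gene lists (circles) and over all genes (square), with the dashed line where both change alike and the ratio stays the same. The erythroid list sits at -0.14 and 1.91, the acinar list at -2.89 and 0.34, and the regulatory T cell list at 0.43 and -0.03.

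Pancreatic genes spread widely between arrays and gave few calls. A pancreatic lymph node lies against the pancreas, and acinar cells make digestive enzymes while islet cells make hormones. All 30 measured acinar genes had a difference below 0 and the median was -3.17, but 1 was called lower, against 7.43% of all genes. The list mean was 0.23, -5.56, -0.32 and 0.55 at 8 weeks and ran from -7.32 through -4.05 to -1.18 at 12 weeks, so that 8-week replicate 2 lay inside the 12-week range. The NOD signal was 16.03 ± 2.65 (SD, n = 4) and 13.08 ± 2.03 (SD, n = 7), and the control signal 17.30 ± 0.25 and 17.44 ± 0.28. Control spots of 18 of these genes were saturated on at least 1 array, so the list values above rest in part on saturated spots and are approximate. The list mean fell by 4.20 within version 8.1.1.1 and was higher by 1.15 within 8.5.1.1. The called gene was Bhlha15, an acinar transcription factor, at -3.07 (adjusted p = 0.0088, limma), named after its value was seen.

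The islet list mean spread less between arrays than the acinar one. Of 35 measured genes 4 had a lower ratio and none a higher one, a share not far above the 7.43% lower among all genes, with a median of -0.32. Only 10 of the 35 met the background and saturation rule used for naming genes. The number of calls therefore says little about the dim members of the list. The list mean fell by 0.70 within version 8.1.1.1 and was higher by 0.55 within 8.5.1.1. The NOD signal was lower for 14 genes and the control signal for 13, against 13.5% and 13.9% of all genes. Ins2, the main insulin gene of the mouse, read -1.01, -4.48, -2.53 and 0.87 at 8 weeks and -7.05, -6.83 and -1.40 at the lowest, median and highest 12-week array. The groups overlapped, since replicate 2 at 8 weeks and replicate 6 at 12 weeks each lay on the other group's side. Its difference was -4.06 ± 1.29 (SE, adjusted p = 0.0348, limma), with -4.25 in the NOD signal and -0.19 in the control signal. It was -4.25 within version 8.1.1.1 and -1.49 within 8.5.1.1, and the call was lost without 8-week replicate 4 (-3.17, adjusted p = 0.18, limma).

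Ins1, the other insulin gene, differed by -3.07 ± 1.04 (SE, adjusted p = 0.0479, limma) with overlapping ranges, passed the background test in the NOD channel on 3 of 7 older arrays, and was 0.41 higher within version 8.5.1.1. Gcg, the glucagon gene, differed by -2.47 (adjusted p = 0.0717, limma) and likewise passed on 3 of 7. Deaf1, a transcription factor that acts on tissue antigen genes in lymph node stroma, read -0.62, -5.98, -0.92 and 0.46 at 8 weeks and -6.10, -5.13 and -1.41 at 12 weeks. Its ranges overlapped and it was not called (-2.65, adjusted p = 0.15, limma), with another probe at 0.12, although both channels were lower, at -4.76 in NOD and -2.11 in the control. Gcg and Deaf1 turned between the versions, with -4.27 and -5.42 within 8.1.1.1 and 1.16 and 1.79 within 8.5.1.1. The arrays with the 2 highest Deaf1 ratios at 12 weeks, replicates 5 and 6, were also those with the 2 highest acinar list means of that age. What the amount of pancreatic RNA contributed to these values was not tested.

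**Figure D4:**
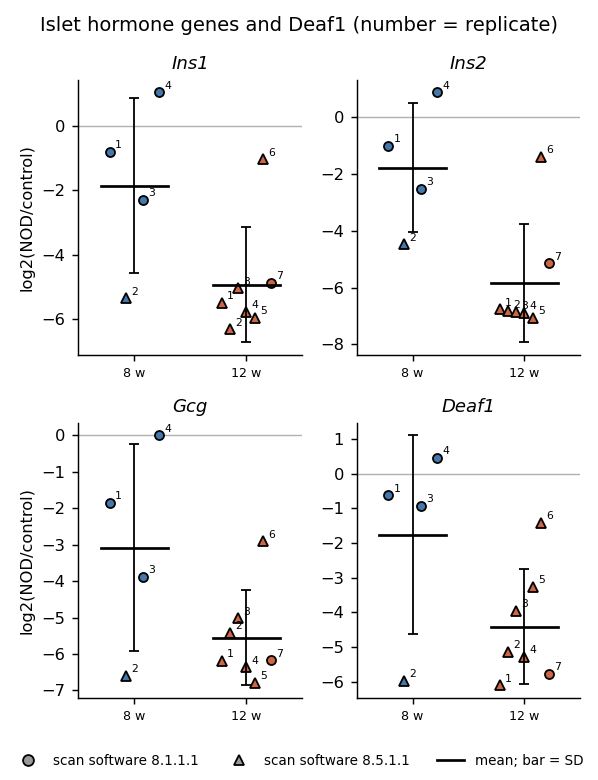
log2(NOD/control) of the hormone genes Ins1, Ins2 and Gcg and of Deaf1 on each array at 8 weeks (blue, n = 4) and 12 weeks (orange, n = 7), with replicate numbers, group mean and SD. In each panel 8-week replicate 2 and 12-week replicate 6 lie toward the other group, for Ins2 at -4.48 and -1.40.

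The genes with a higher ratio at 12 weeks were led by Cirbp, a cold-inducible RNA-binding protein. Its ratio was -1.28, -1.41, -1.48 and -1.72 at 8 weeks and 0.73, 1.0 and 1.87 at the lowest, median and highest 12-week array. Every 12-week array was above every 8-week array. The difference was 2.66 ± 0.35 (SE, adjusted p = 7.63e-06, limma), with 1.66 in the NOD signal and -1.0 in the control signal, both called. It was 2.22 within version 8.1.1.1 and 2.67 within 8.5.1.1.

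Hif1a encodes the oxygen-regulated transcription factor HIF-1 alpha, which also acts in activated T cells and macrophages. It read -0.23, -0.42, -0.13 and -0.50 at 8 weeks and 0.25, 1.64 and 1.94 at 12 weeks, a difference of 1.74 ± 0.21 (SE, adjusted p = 3.32e-06, limma) without overlap. The NOD signal carried 1.48 and the control signal -0.26, and the ratio difference was 1.92 and 1.80 within the versions. Lrp5, a Wnt co-receptor, read 0.14, -1.07, 0.23 and 0.0053 at 8 weeks and 0.40, 2.04 and 3.0 at 12 weeks. Its difference of 2.13 ± 0.35 (SE, adjusted p = 0.000114, limma) was without overlap and lay in the NOD signal (2.40). Slc23a1, a vitamin C transporter, differed by 2.01 with 1.98 in the NOD signal, and its call was lost with the scanner as a block (1.5, adjusted p = 0.095, limma). Marco, a scavenger receptor of lymph node macrophages, was higher by 1.38 ± 0.29 (SE, adjusted p = 0.00132, limma) with 1.84 in the NOD signal.

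Other rises were falls of the control signal. Lyve1, the hyaluronan receptor of lymphatic endothelium, read -0.97, -1.16, -0.80 and -1.12 at 8 weeks and 0.06, 0.94 and 1.18 at 12 weeks. The difference of 1.82 ± 0.28 (SE, adjusted p = 5.14e-05, limma) was without overlap, with 0.27 in the NOD signal (adjusted p = 0.60, limma) and -1.55 in the control signal. Ptpn22, a phosphatase that restrains T cell receptor signals, rose by 1.39 with -1.63 in the control signal, and passed the background test on 6 of 7 older arrays in each channel. Il7r, the interleukin 7 receptor of naive and memory T cells, read -0.74, -0.65, -0.71 and -0.60 at 8 weeks and 0.32, 0.60 and 1.09 at 12 weeks. Its difference of 1.35 ± 0.19 (SE, adjusted p = 1.94e-05, limma) was without overlap and came from both channels, NOD at 0.68 and control at -0.67. The other Il7r probe differed by 0.50.

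**Figure D5:**
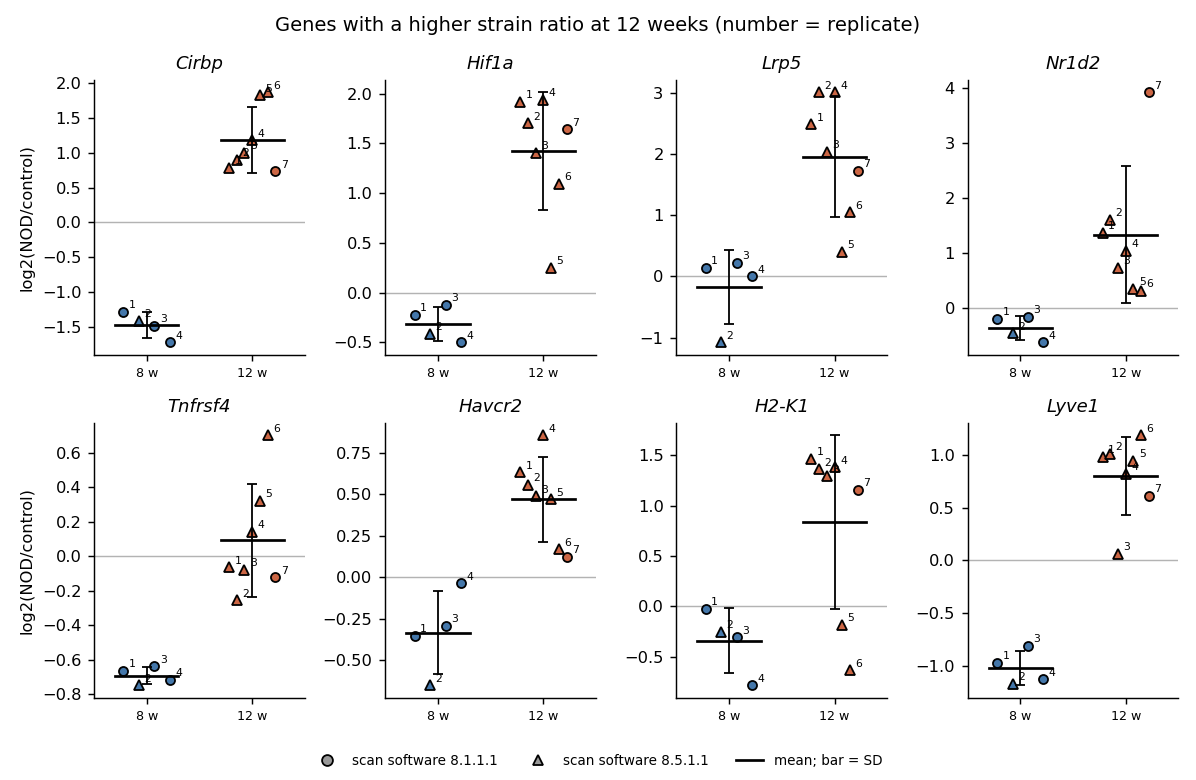
log2(NOD/control) of 8 genes with a higher ratio at 12 weeks, for each array at 8 weeks (blue, n = 4) and 12 weeks (orange, n = 7), with replicate numbers, group mean and SD. For Cirbp the 8-week arrays lie between -1.72 and -1.28 and the 12-week arrays between 0.73 and 1.87, and for H2-K1 12-week replicates 5 and 6 lie within the 8-week range.

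A minority of the regulatory T cell and inhibitory receptor genes rose. Regulatory T cells restrain autoreactive T cells, and CTLA-4 on them withdraws costimulation. Of 20 measured genes 5 had a higher ratio and none a lower one, against 4.59% higher among all genes, with a median difference of 0.20. The NOD median was 0.43 and the control median -0.03. The list mean was -0.09, -0.06, -0.07 and -0.39 at 8 weeks and ran from 0.0037 through 0.14 to 0.44 at 12 weeks, without overlap.

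Tnfrsf4, the costimulatory receptor OX40, read -0.66, -0.75, -0.64 and -0.71 at 8 weeks and -0.26, -0.06 and 0.70 at 12 weeks, a difference of 0.78 ± 0.21 (SE, adjusted p = 0.0134, limma) without overlap. Havcr2, the inhibitory receptor TIM-3, rose by 0.81 ± 0.19 (SE, adjusted p = 0.00462, limma), also without overlap, with 0.68 in the NOD signal. The other Havcr2 probe differed by only 0.14. Foxp3, the factor that defines regulatory T cells, was 1.15 ± 0.33 higher (SE, adjusted p = 0.0183, limma), from -0.32, -0.39, -1.13 and -0.78 at 8 weeks to -0.14, 0.54 and 0.98 at 12 weeks. The Foxp3 ranges did not overlap, but at 12 weeks its NOD spot passed the background test on 5 of 7 arrays and its control spot on 2 of 7. Ctla4 was 1.27 ± 0.29 higher (SE, adjusted p = 0.00305, limma), with the control spot past the background test on 1 of 7 at 12 weeks. With the version as a block the Foxp3 difference was 0.89 (adjusted p = 0.21) and the Ctla4 difference 0.95 (adjusted p = 0.11, limma), and with the scanner as a block none of the 20 genes was called. Tnfrsf18, the receptor GITR, rose by 0.63 (adjusted p = 0.0446, limma), with overlapping ranges and a call that 19 alternative settings removed.

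Some clock genes had a higher ratio. The circadian clock runs on activators whose output is repressed by its own products, and its genes follow the hour at which tissue is taken, which the labels do not give. Of 18 measured genes 6 had a higher ratio, against 4.59% of all genes, and none a lower one, with a median difference of 0.31. With the version or the scanner as a block 3 were called, and 2 in a fit to the 11 arrays. Nr1d2, the repressor REV-ERB beta, read -0.21, -0.46, -0.17 and -0.63 at 8 weeks and 0.31, 1.04 and 3.92 at 12 weeks. The difference was 1.69 ± 0.42 (SE, adjusted p = 0.00626, limma) without overlap, all of it in the NOD signal (1.74), and 12-week replicate 7 gave the value of 3.92. Tef, a clock output factor, rose by 1.17 ± 0.28 (SE, adjusted p = 0.00453, limma) without overlap, with 0.95 in the NOD signal. Only 1 of its 3 probes rose, and the others had differences below 0, down to -0.60, that were not called. Nfil3, which competes for the sites of Tef, rose by 1.03 with overlapping ranges and -0.81 in the control signal. Bhlhe40 rose in both channels, by 1.71 and 1.02. Per2 (0.91) and Hlf (1.06) were the remaining calls, named after their values were seen. Without 8-week replicate 2 the list had 2 calls.

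The Tef promoter is shown because the gene is a called clock member and carries the E-box CACGTG, in capitals, the site of the clock's activators. The 250 bases before the start of 1 of its RefSeq starts lie at chr15:81811164-81811413 (plus strand) of GRCm38.p6.
Tef: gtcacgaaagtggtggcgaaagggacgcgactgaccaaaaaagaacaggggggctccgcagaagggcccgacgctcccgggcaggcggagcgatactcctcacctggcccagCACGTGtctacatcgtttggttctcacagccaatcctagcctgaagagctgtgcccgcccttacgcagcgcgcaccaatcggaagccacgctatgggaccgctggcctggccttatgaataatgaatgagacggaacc
The motif, which reads the same on both strands, was in 5 of 20 promoters of clock genes (25%), from 15 of the 18 genes, and in 7.15% of all promoters.

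Among immediate early genes, which answer cell stimulation within minutes and also tissue handling, 5 of 27 measured genes had a higher ratio, against 4.59% of all genes, and none a lower one. The number called was 2 with the version as a block, 1 with the scanner as a block and 2 in a fit to the 11 arrays. Junb, a subunit of the AP-1 factor, rose by 1.13 ± 0.24 (SE, adjusted p = 0.00166, limma) without overlap and with 1.13 in the NOD signal. Klf2, which governs T cell exit from lymph nodes, rose by 1.46 with overlapping ranges and an opposite second probe at -0.82. H2-K1, a class I MHC heavy chain, was 1.18 ± 0.29 higher (SE, adjusted p = 0.00529, limma), with 1.15 in the NOD signal. That split depended on the scaling: with quantile normalisation over single channels it was 0.67 in the NOD and -0.57 in the control signal. The H2-K1 ratio read -0.02, -0.25, -0.31 and -0.79 at 8 weeks, and -0.64, 1.29 and 1.46 at 12 weeks, so the ranges overlapped. Its control spot was saturated on 1 of 4 arrays at 8 weeks. H2-D1, the other class I chain, differed by 0.06 (adjusted p = 0.90, limma), while both of its channels were higher by about 1 unit, 1.07 and 1.01. Class I MHC and loading genes as a list were called 4 higher and 4 lower of 25, against 4.59% and 7.43% of all genes. Taking the scanner as a block left 1 higher and 2 lower calls, and a fit to the 11 arrays 0 and 2. The falls included Calr, a chaperone of class I loading, which read 1.15, 1.01, 1.15 and 1.02 at 8 weeks and -0.80, -0.45 and 0.30 at 12 weeks. The Calr difference of -1.44 ± 0.17 (SE, adjusted p = 3.32e-06, limma) was without overlap, with 1.74 in the control signal and 0.30 in the NOD signal, and the other Calr probe had 0.20.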

How the data were processed

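RNA from pancreatic lymph nodes was hybridised to Agilent whole mouse genome 2-colour arrays. Per the file headers the deposited intensity values (green and red processed signals) came from Feature Extraction 8.1.1.1 or 8.5.1.1, background-subtracted and dye-normalised; the submitters' processing notes name version 8.5. The deposited value table holds a log10 ratio equal to minus the scanner's red over green ratio, so that higher means NOD, and served only as an alternative. Here log2 of green over red was used as the strain ratio, and for single channels the arrays were scaled by Aquantile, which leaves each ratio as it is.

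Control spots and outlier flags were left out, spots of 1 probe were averaged, and 40833 of 41174 probes were kept, those that passed the background test in 1 or both channels of 4 or more arrays, with the brightest probe for each of 28361 genes. limma 3.58.1 in R 4.3.3 was fitted to all 35 arrays with a mean for each of 6 ages and no covariate, with Benjamini-Hochberg adjustment and a threshold of 0.05. Named genes were called, did not overlap, and had both channels well above background and unsaturated on at least 2 arrays at 8 weeks and 4 at 12 weeks: the 15 highest and lowest differences, the 6 highest and lowest carried by each channel, up to 4 called genes of each list with at least 5 calls (overlap allowed), and 15 genes of islets, MHC, tolerance and cytokines whatever their value, some left out for length. A few genes are not reported here. The members and lists were chosen with earlier results of these data known. Fits were tested on simulated ratios with independent noise on each array. These held no scan day, scanner or version effect, so that test cannot show how far such effects enter the calls. Replicate numbers gave same-number correlations of -0.15 to 0.012, so they do not pair the samples. Alternatives were background correction, centring, filters, other scalings, fewer arrays, and version, scanner, scan day or replicate as a block. Since no scan day held both ages, the scan day block cannot separate day from age. Symbols, and the promoters, came from RefSeq tables (GRCm38.p6). Probe sequences were not used here.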

Additional observations from a re-analysis of the deposited data

Results flagged for a closer look

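Of 278 groups of 4 or 7 values examined with Dixon's criterion, 15 held a sample far from the others, and chance flags about 1 in 20. At 8 weeks these were replicate 2 for Lrp5 (-1.07), Zfp787 (-2.11) and Cd14 (-1.18), replicate 3 for Cerk (-0.0923) and Junb (-0.0101), and replicate 4 for the regulatory T cell list mean (-0.387). At 12 weeks they were replicate 1 for S100a9 (-0.574) and the neutrophil list mean (-0.462), and replicate 5 for Itgax (0.00466). Replicate 6 stood apart for Tnfrsf18 (1.24), Cr2 (-1.06), Ins1 (-1.04) and Ins2 (-1.40), and replicate 7 for Nr1d2 (3.92) and H2-DMb1 (-0.444). All are log2 ratios of NOD over control.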

How the results depend on the processing

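Against 1303 higher and 2107 lower genes, a fit to the 11 arrays gave 582 and 1018, the version as a block 820 and 1159, the scanner as a block 631 and 1188, scan day as a random block 829 and 1355, and acinar and islet means as covariates 767 and 1387. Version 8.1.1.1 alone gave 329 and 571, and version 8.5.1.1 alone 135 and 203, where the lone array of an age is assumed to vary like the other groups. Without 12-week replicates 5 and 6 together 2255 were higher. At 1 unit or more (307 and 857), normexp gave 85 and 264, probes well above background on all 11 arrays 171 and 534, leaving out replicates 5 and 6 together 572 and 1354, and version 8.5.1.1 alone 111 and 184; the lower count was 559 with the covariates and 542 in version 8.1.1.1. Leaving out 1 array gave 797 (without 8-week replicate 4) to 1687 higher and 1448 to 2544 lower, and at 1 unit 235 to 398 and 638 to 1052. In the NOD signal that gave 1894 to 5121 higher and 2306 to 4889 lower, and in the control signal 3343 to 7065 and 2082 to 5422. Median-signal scaling gave 7655 and 2491 for NOD and 11119 and 2331 for the control. With the replicate number as a block 1134 were higher and 1940 lower. Cd14 (-0.096) and H2-DMb1 (0.14) reversed within version 8.1.1.1 and Ins1 (0.41) within 8.5.1.1. Over the named genes 2907 of 3277 values kept direction and side of the threshold and 359, of 107 genes, lost the call. The cause was not tested. Low signal over background limits dim genes such as Foxp3 and Ctla4. The percentage of spots above background was lower at 12 weeks in the NOD channel. In the control channel it was lower with version 8.5.1.1 at both ages.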
